A study of Homo sapiens with 27 samples.

Results

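The 6 genes described here encode the histone acetyltransferase module that the SAGA and ATAC coactivator complexes share in paralogous forms. They were chosen by name as TADA2B, TADA2A, TADA3, SGF29, KAT2A and KAT2B, and make up 6 of the 58721 genes in the count table. KAT2A and KAT2B are paralogous acetyltransferases that acetylate lysines of histone tails, and one or the other is the catalytic subunit of a module. TADA2B is the adaptor found in SAGA and TADA2A is the adaptor found in ATAC, and each stimulates the catalytic subunit. TADA3 is an adaptor common to both complexes, and SGF29 reads methylated histone tails for both. The module opens chromatin for transcription, and SAGA carries a deubiquitinase module and an activator-binding subunit beside it.

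Gene expression was measured by RNA sequencing of polyA RNA in 27 libraries of A375, an established human melanoma cell line whose growth depends on mutant BRAF and the MAPK cascade. The design crossed 3 cell populations with 3 treatments of 24 h, with 3 libraries in each of the 9 groups. Control cells, whose genotype is labelled WT, received a guide RNA to GFP, a gene human cells lack. The other populations are labelled TADA2B KO and carried guide 1 or guide 2 against TADA2B. Treatments were DMSO (the solvent), 20 nM trametinib, which inhibits the kinase MEK, and 1 µM vemurafenib, which inhibits mutant BRAF upstream of MEK. The labels do not say whether a knockout population is a clone or a pool, nor whether replicates were grown separately, so p-values rest on a spread that may be technical.

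Library totals lay between 67502300 and 92513726 counts, and the common biological coefficient of variation was 4.02%. CPM are counts scaled to the library total times the library's TMM factor, a scaling factor that lay between 0.866 and 1.09. Both drugs lowered the MAPK feedback gene DUSP6, a phosphatase of ERK, in control cells. Its level went from 147 ± 2.66 CPM (SD, n = 3) to 1.05 ± 0.0901 with trametinib and 13.8 ± 0.679 with vemurafenib. In the same cells SPRY4, a feedback inhibitor, went from 443 ± 3.31 CPM to 1.64 ± 0.177 and 4.3 ± 0.116. Of the melanocyte lineage markers, SOX10 (267 to 1120 CPM over the libraries), MITF (52.1 to 152) and S100B (17.3 to 98.8) were well covered, whereas the pigment genes PMEL (1.15 to 2.34) and TYR (at most 0.281, with 9 libraries at 0) were near the floor. A further pigment gene, DCT, ranged from 0.128 to 1060 CPM (median 68.3), with a mean of 0.938 CPM in control cells in DMSO. The 8 markers of keratinocytes, fibroblasts, leukocytes and endothelium summed to 36.9 to 39.7 CPM in control cells in DMSO, 48.8 to 50.3 with guide 1 and 53.6 to 56.6 with guide 2. In trametinib the same sum was 62.3 to 70.5 CPM in control cells, 88.6 to 93 with guide 1 and 98.3 to 104 with guide 2, and in vemurafenib it was 57.3 to 60.8, 72.9 to 74.6 and 80.2 to 88.5. By median over the libraries the largest of these were PDGFRB (19 to 60.7 CPM) and COL1A1 (5.4 to 28.8), followed by the keratin KRT14 (3.32 to 15). In control cells in DMSO KRT14, with a mean of 8.99 CPM, stood above COL1A1 with 5.7. KRT5 stayed at or below 0.645 CPM and CD3E was at 0 in 19 libraries. The sum was thus higher with each drug and with each guide, but not every marker followed it. The endothelial marker PECAM1 had a mean of 1.95 CPM in control cells in DMSO and a median of 0.349 over the libraries. Over the same groups some module genes rose with the drugs and TADA2A fell. The part of the markers in the results was not tested. In a bulk library, fewer cells of a kind and less RNA per cell cannot be told apart.

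The gene positions below are on hg38, from GENCODE release 29. TADA2B (ENSG00000173011) lies on chromosome 4 at 7041899 to 7057952, plus strand, and TADA2A (ENSG00000276234) on chromosome 17 at 37406874 to 37479730, plus strand. TADA3 (ENSG00000171148) lies on chromosome 3 at 9779860 to 9793011, minus strand, and KAT2B (ENSG00000114166) on the same chromosome at 20040023 to 20154404, plus strand. SGF29 (ENSG00000176476) lies on chromosome 16 at 28553915 to 28591790, plus strand. KAT2A (ENSG00000108773) lies on chromosome 17 at 42113108 to 42121358, minus strand. TADA3 shares 479 exon bases with ARPC4 and 356 with OGG1, both on the opposite strand, which is 11.313% and 8.408% of its exon bases. SGF29 shares 183 exon bases (8.616%) with an antisense gene averaging 10.815 counts, and TADA2B shares 188 (3.255%) with CCDC96 on the opposite strand. Whether counting used the strand is not given in the sources used here, so reads in those stretches cannot be told apart. KAT2A shares 405 exon bases (10.746%) with a gene on the same strand that has 0 counts, and KAT2B and TADA2A share none with another gene.

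Promoter sequence is shown for the adaptor paralogs TADA2B and TADA2A, because their transcripts moved in opposite directions with each drug. RefSeq gives 8 windows for the 6 genes (the 250 bases before a transcription start, GRCh38.p14), of which 2 hold no annotated exon of GENCODE release 29 and are printed 5′ to 3′. The TADA2B window is chr4:7043122-7043371 and the TADA2A window is chr17:37406974-37407223, both on the plus strand and inside the gene's span.
TADA2B: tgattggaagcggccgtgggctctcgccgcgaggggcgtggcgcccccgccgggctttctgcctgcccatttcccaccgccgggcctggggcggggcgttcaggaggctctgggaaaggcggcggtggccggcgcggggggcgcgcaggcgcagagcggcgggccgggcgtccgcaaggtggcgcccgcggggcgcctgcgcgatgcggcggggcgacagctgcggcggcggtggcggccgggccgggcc
TADA2A: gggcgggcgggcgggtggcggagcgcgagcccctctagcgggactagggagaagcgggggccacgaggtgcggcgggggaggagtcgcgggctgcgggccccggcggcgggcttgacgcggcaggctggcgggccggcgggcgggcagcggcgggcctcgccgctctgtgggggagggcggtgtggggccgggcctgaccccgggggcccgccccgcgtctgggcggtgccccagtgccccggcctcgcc
Both windows are rich in G and C, with 81.6% for TADA2B and 84.0% for TADA2A, beside a median of 58.0% over 35116 RefSeq promoters of this length. The TADA2B window holds 41 CG pairs and the TADA2A window holds 36. The letters searched, on both strands, were CACGTG (E-box), CATGTG (M-box), TGANTCA (AP-1), CCGGAA (ETS) and TGTTTAC (forkhead), which occur in 6.34%, 9.42%, 6.57%, 14.5% and 2.98% of all promoters. Neither printed window holds any of them, so no base is in capitals. Over the 8 windows, 1 window of TADA3 held matches, with CCGGAA at 93 to 88 and at 11 to 6 bases before the start.

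KAT2B was the member that varied most over the study. Its group means ran from 53.98 CPM in control cells in DMSO to 397.6 CPM in control cells in vemurafenib, a 7.37-fold span, while the spans of the other 5 members lay between 1.37-fold and 1.55-fold. Levels between genes are compared as CPM per kilobase of merged exons. On that scale control cells in DMSO held 31.11 ± 0.1258 for TADA3 (SD, n = 3), 14.75 ± 0.5585 for KAT2A, 9.58 ± 0.2496 for KAT2B, 5.396 ± 0.1612 for TADA2B, 4.687 ± 0.07864 for TADA2A and 4.368 ± 0.2183 for SGF29. TADA3 was thus the most abundant transcript, and KAT2A stood above KAT2B. The order of TADA2B, TADA2A and SGF29 depended on the length used. With lengths of the longest transcript SGF29 (8.047) stood above TADA2B (7.165) and TADA2A (6.231). In vemurafenib KAT2B reached 70.58 ± 2.394 per kilobase in control cells and stood above TADA3 at 43.55 ± 1.468. It also stood above TADA3 in control cells in trametinib, at 45.32 ± 1.218 against 40.93 ± 2.231, but this order turned when lengths of the longest transcript were used (52.83 for KAT2B and 67.86 for TADA3). KAT2B and KAT2A changed places with both drugs in every population, under either length.

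**Figure D1:**
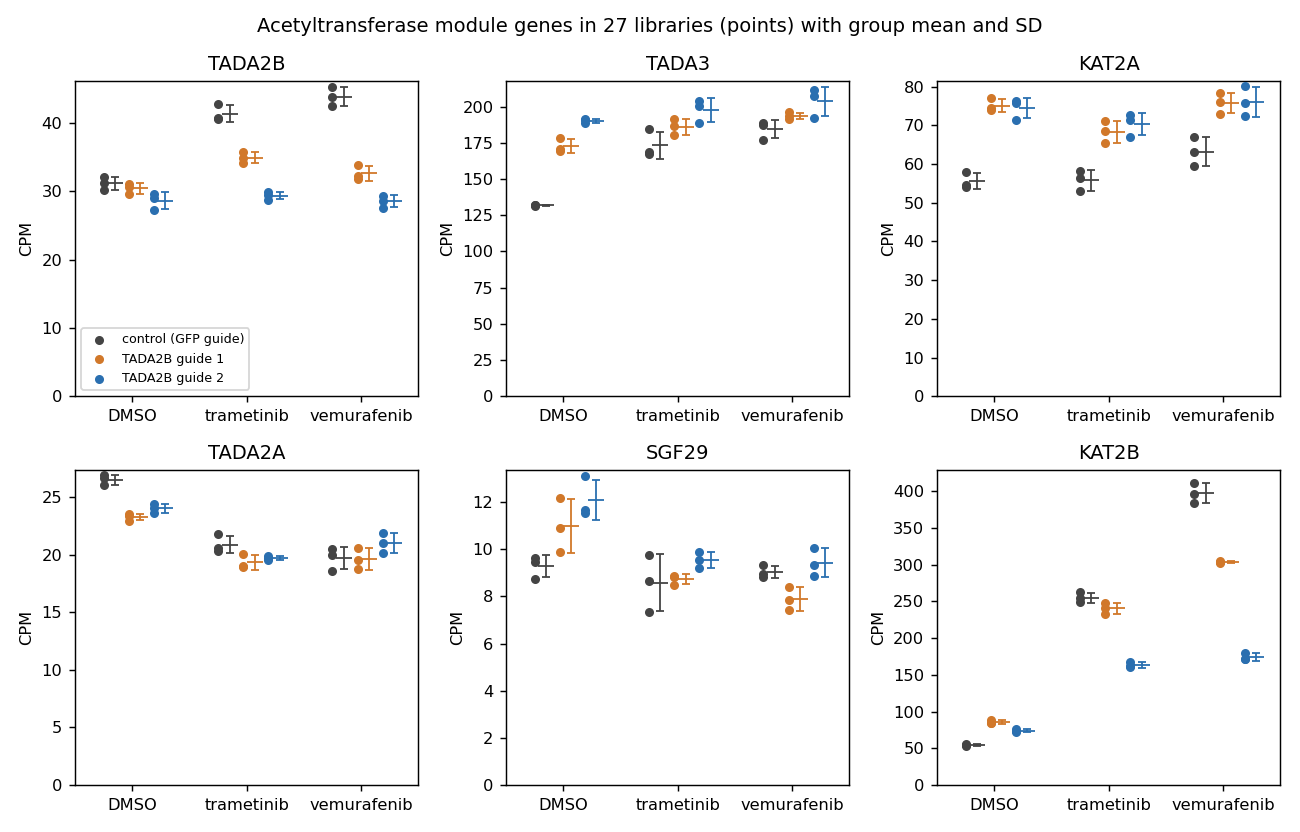
Level of each of the 6 genes in CPM (vertical axes, from 0) by treatment, with 1 point per library, colour for the cell population, and a line with error bars for the mean and SD of 3 libraries. KAT2B spans 52.6 to 411.5 CPM, and in the TADA2B panel the drug libraries of control cells, from 40.5 to 45.2 CPM, sit above all others.

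Trametinib and vemurafenib were each compared with DMSO in control cells to ask what MAPK inhibition did to the module. KAT2B rose most, the adaptors TADA2B and TADA3 rose, and TADA2A fell with both drugs. By edgeR's quasi-likelihood test with Benjamini-Hochberg adjustment over all genes, 4 of the 6 members passed with trametinib (3 higher, 1 lower), where 69.0% of all genes tested passed (36.4% higher, 32.5% lower). With vemurafenib 5 passed (4 higher, 1 lower), where 67.3% of all genes did (35.7% higher, 31.6% lower), so both totals lie near the background. The median log2 change of the members was 0.205 with trametinib and 0.34 with vemurafenib, beside 0.059 and 0.06 over all genes. Both drugs are set against the same DMSO libraries.

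Among the catalytic subunits, KAT2B stood at 55.4, 52.6 and 53.9 CPM in the DMSO libraries of control cells, at 262.6, 249 and 254 with trametinib, and at 412, 385 and 397 with vemurafenib. The 3 treatments did not overlap. KAT2B rose by log2 2.24 ± 0.033 (SE; adjusted p = 8.2e-45) with trametinib, and 10.0% of all genes changed as much in either direction. With vemurafenib it rose by log2 2.88 ± 0.034 (adjusted p = 6.3e-49), a size that 5.0% of genes reached. KAT2A stood at 54.6, 54.2 and 58 CPM in DMSO, at 56.3, 52.9 and 58.2 with trametinib, and at 59.6, 67 and 63.2 with vemurafenib. Its trametinib libraries overlapped those in DMSO (log2 0.01 ± 0.044, adjusted p = 0.91), and it rose with vemurafenib by log2 0.19 ± 0.043 (adjusted p = 2e-04). A stricter filter kept only genes with at least 10 CPM in 3 libraries (below, genes under 10 CPM left out). It also changes the scaling, which moves the drug changes of other members too. With it KAT2A passed in trametinib as well, at log2 0.11 (adjusted p = 0.021).

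Of the adaptors, TADA2B stood at 30.2, 31.2 and 32.1 CPM in DMSO, at 40.5, 40.7 and 42.8 with trametinib, and at 42.5, 43.7 and 45.2 with vemurafenib. All drug libraries lay above those in DMSO, and the drugs overlapped each other. TADA2A, its counterpart in ATAC, stood at 26.6, 26 and 26.9 CPM in DMSO, at 21.75, 20.55 and 20.3 with trametinib, and at 20.5, 18.6 and 19.9 with vemurafenib. All drug libraries lay below those in DMSO, with falls of log2 -0.34 ± 0.048 (adjusted p = 1.8e-08) and -0.43 ± 0.049 (adjusted p = 7.3e-11). TADA3, the adaptor of both complexes, stood at 131, 132 and 132 CPM in DMSO, at 167, 169 and 184 with trametinib, and at 188, 187 and 177 with vemurafenib. Its rises of log2 0.40 ± 0.035 (adjusted p = 3.6e-14) and 0.49 ± 0.035 (adjusted p = 3.5e-17) put every drug library above every DMSO library.

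The histone reader SGF29 had the lowest counts of the 6, from 530 to 1072 per library. It stood at 8.75, 9.64 and 9.44 CPM in DMSO, at 8.64, 7.35 and 9.76 with trametinib and at 9.34, 8.82 and 8.97 with vemurafenib, and all 3 treatments overlapped. Its log2 changes were -0.12 ± 0.081 (adjusted p = 0.21) and -0.04 ± 0.081 (adjusted p = 0.70). Without replicate 3 of control cells in trametinib, the highest of its group, the first became -0.215 (adjusted p = 0.026).

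Vemurafenib was also set against trametinib directly, as both act on the same cascade. KAT2A and KAT2B passed in control cells, 2 of 6 members and both higher, where 16.3% of all genes passed (8.78% higher). KAT2B was 1.56-fold higher with vemurafenib (log2 0.64 ± 0.031, adjusted p = 3.7e-22), and KAT2A was higher by log2 0.18 ± 0.043 (adjusted p = 0.0018). In knockout cells (mean of the guides) KAT2A and KAT2B also passed, where 19.2% of all genes did (10.9% higher), with log2 0.21 ± 0.022 for KAT2B and 0.13 ± 0.03 for KAT2A (adjusted p = 4.3e-11 and 7.9e-04). With both guides pooled, the libraries of the 2 drugs overlapped for each gene. The KAT2B value joins unlike guides, with means of 240.5 CPM in trametinib and 303.7 in vemurafenib for guide 1, and 163.5 and 174.4 for guide 2. TADA3 differed by log2 0.09 ± 0.035 in control cells (adjusted p = 0.072) and passed without replicate 3 of control cells in trametinib (log2 0.135, adjusted p = 0.0053), without replicate 3 of control cells in vemurafenib (0.117, 0.029) or without replicate 3 of guide 2 in vemurafenib (0.089, 0.04).

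The knockout populations were compared with control cells in DMSO to ask how loss of the SAGA adaptor TADA2B left the rest of the module. Both catalytic subunits, TADA3 and SGF29 were higher with each guide, and TADA2A was lower with each guide. Of the 6 members 5 passed (4 higher, 1 lower) for the mean of the guides, where 57.9% of all genes tested passed (29.3% higher, 28.6% lower). With guide 1 alone 52.0% of all genes passed and with guide 2 alone 54.9%. Their median log2 change was 0.37, beside 0.001 over all genes. TADA2B itself is the targeted gene, and since an edited gene can keep its transcript, its level does not check the genotype.

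KAT2B stood at 88.9, 84.5 and 84.1 CPM with guide 1 and at 73.2, 72.5 and 76.1 with guide 2, against 52.6 to 55.4 in control cells. The 3 populations did not overlap. It was higher by log2 0.67 ± 0.033 with guide 1 (adjusted p = 1.8e-22) and by 0.45 ± 0.034 with guide 2 (adjusted p = 2.3e-16). KAT2A stood at 77.2, 73.9 and 74.4 CPM with guide 1 and at 75.7, 71.5 and 76.3 with guide 2, all above the 54.2 to 58 CPM of control cells. The guides gave log2 0.43 ± 0.043 and 0.42 ± 0.043 (adjusted p = 4.6e-12 and 9.1e-12).

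TADA3 stood at 169, 178 and 170.4 CPM with guide 1 and at 191, 189 and 191 with guide 2, against 131 to 132 in control cells. That is 131% of control with guide 1 and 144% with guide 2 (log2 0.39 ± 0.035 and 0.53 ± 0.035, adjusted p = 1.7e-13 and 3.9e-18). SGF29 stood at 10.9, 12.2 and 9.9 CPM with guide 1 and at 11.7, 13.1 and 11.6 with guide 2, all above the 8.75 to 9.64 CPM of control cells. It was higher by log2 0.31 ± 0.07 over both guides (adjusted p = 1.2e-04). The guide 1 value alone, log2 0.24 ± 0.08 (adjusted p = 0.0087), did not pass without replicate 1 of control cells in DMSO (0.203, adjusted p = 0.055) or without replicate 2 of guide 1 in DMSO (0.165, adjusted p = 0.12).

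TADA2A stood at 22.9, 23.4 and 23.5 CPM with guide 1 and at 23.6, 24.4 and 24 with guide 2, all below the 26 to 26.9 CPM of control cells. It fell by log2 0.16 over both guides (log2 -0.16 ± 0.041, adjusted p = 6.1e-04). TADA2B, at 29.6, 31.1 and 30.6 CPM with guide 1 and 29, 27.3 and 29.6 with guide 2, overlapped control cells with guide 1 and lay below them with guide 2. The mean of the guides gave log2 -0.08 ± 0.037 (adjusted p = 0.063), which passed with DESeq2's size factors (-0.087, adjusted p = 0.04), with DESeq2's Wald test (-0.088, adjusted p = 0.031), without replicate 1 of control cells (-0.101, adjusted p = 0.043) and without replicate 3 of guide 2 (-0.091, adjusted p = 0.042).

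**Figure D2:**
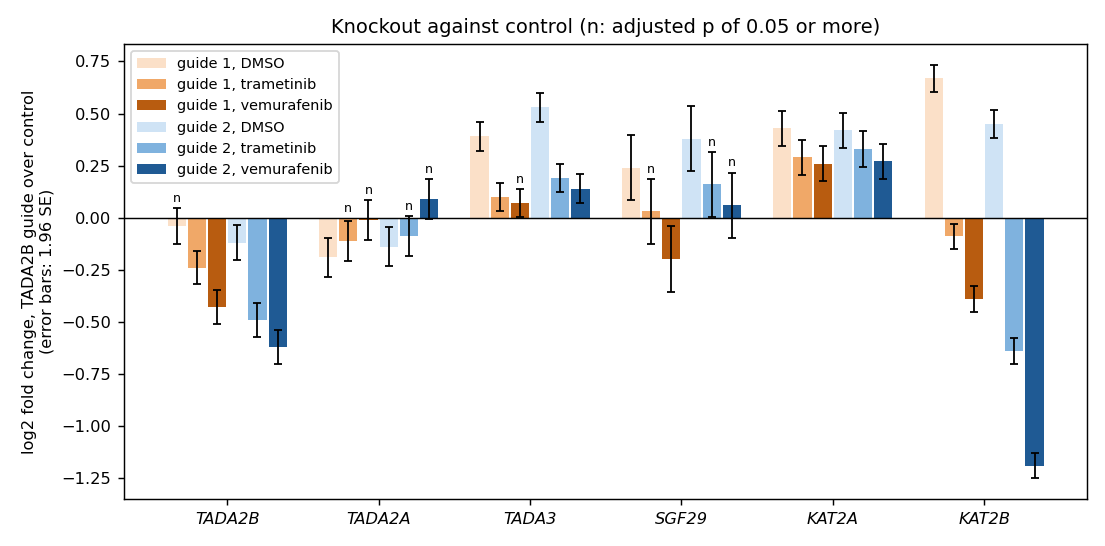
Log2 fold change of each TADA2B guide over control cells (vertical axis) for the 6 genes in each treatment, from the fit over all 27 libraries, with error bars of 1.96 SE and "n" over bars whose adjusted p was 0.05 or more. KAT2B goes from 0.67 and 0.45 in DMSO to -0.39 and -1.19 in vemurafenib, and KAT2A lies between 0.26 and 0.43 throughout.

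Under each drug the same comparison gave another picture for KAT2B, which changed direction, and for TADA2B, whose difference was larger than in DMSO. For the mean of the guides, TADA2B and KAT2B were lower in knockout than in control cells with both drugs. By the same mean KAT2A and TADA3 were higher with both, and TADA2A and SGF29 differed by at most log2 0.10 in size. With trametinib 5 of 6 members passed (2 higher, 3 lower), where 55.9% of all genes passed (27.1% higher, 28.8% lower). With vemurafenib 4 passed (2 higher, 2 lower), where 55.6% did (27.3% higher, 28.3% lower). For guide 1 alone the share of all genes that passed was 49.4% in trametinib and 48.5% in vemurafenib, and for guide 2 alone 54.4% and 54.0%.

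With trametinib KAT2B stood at 248, 241 and 233 CPM with guide 1 and at 168, 162 and 160.4 with guide 2, against 249 to 262.6 in control cells. Guide 1 lay just under control and guide 2 well under it. The fall was log2 -0.64 ± 0.031 with guide 2 (adjusted p = 3e-23). With guide 1 it was -0.09 ± 0.031 (adjusted p = 0.017), which did not pass when replicate 1 of control cells in trametinib was left out (-0.065, adjusted p = 0.13), without replicate 3 of guide 1 in trametinib (-0.064, adjusted p = 0.14), with only the groups compared in the fit (-0.051, adjusted p = 0.20) and with genes under 10 CPM left out (-0.055, adjusted p = 0.11). With vemurafenib KAT2B stood at 304, 302 and 305 CPM with guide 1 and at 171, 171 and 180.4 with guide 2, against 385 to 412 in control cells. The populations were apart, at 76.4% of control with guide 1 (log2 -0.39 ± 0.031, adjusted p = 2.9e-15) and 43.9% with guide 2 (log2 -1.19 ± 0.031, adjusted p = 5.3e-34).

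TADA2B stood at 34.2, 35.7 and 34.8 CPM with guide 1 and at 28.8, 29.4 and 29.8 with guide 2 in trametinib, against 40.5 to 42.8 in control cells. In vemurafenib it stood at 32.2, 31.8 and 33.8 CPM with guide 1 and at 27.6, 29.3 and 28.6 with guide 2, against 42.5 to 45.2. All 12 knockout libraries lay below their controls. The mean of the guides fell by log2 0.37 with trametinib and by 0.52 with vemurafenib (-0.37 ± 0.036 and -0.52 ± 0.036, adjusted p = 1.2e-12 and 1e-17).

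KAT2A stood at 65.4, 68.6 and 71.1 CPM with guide 1 and at 67.1, 71.3 and 72.6 with guide 2 in trametinib, all above the 52.9 to 58.2 CPM of control cells. In vemurafenib it stood at 73.1, 78.4 and 76 CPM with guide 1 and at 75.9, 80.1 and 72.4 with guide 2, all above 59.6 to 67. The knockout level of KAT2A was thus above control in every treatment, by log2 0.43 ± 0.038 in DMSO, 0.31 ± 0.038 in trametinib and 0.27 ± 0.037 in vemurafenib (adjusted p = 1e-13, 7.4e-10 and 3.7e-08). TADA3 in trametinib was at 180.4, 191 and 187 CPM with guide 1 and at 189, 204 and 200.4 with guide 2, and in vemurafenib at 192, 196 and 193 and at 211, 207 and 192. Its mean over the guides was above control by log2 0.15 ± 0.03 in trametinib (adjusted p = 4.8e-05) and 0.11 ± 0.03 in vemurafenib (adjusted p = 0.0022). Guide 1 overlapped control cells in trametinib and the other 3 knockout groups lay above theirs.

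TADA2A and SGF29 were compared in the same way under the drugs. TADA2A was at 18.9 to 20.1 CPM with guide 1 and 19.5 to 19.8 with guide 2 in trametinib (log2 -0.10 ± 0.042, adjusted p = 0.043). That call was lost in 12 other settings, 5 of them other ways to fit or filter and 7 of them without replicate 1 or 2 of control cells, replicate 1 or 3 of guide 1 or any replicate of guide 2 in trametinib, with the adjusted p reaching 0.26 without replicate 1 of control cells. In vemurafenib TADA2A was at 18.7 to 20.6 CPM with guide 1 and 20.2 to 21.8 with guide 2 (log2 0.04 ± 0.043, adjusted p = 0.40). SGF29 was at 8.48 to 8.88 CPM with guide 1 and 9.22 to 9.88 with guide 2 in trametinib (log2 0.09 ± 0.07, adjusted p = 0.27), and at 7.42 to 8.41 and 8.86 to 10.1 in vemurafenib (log2 -0.07 ± 0.07, adjusted p = 0.43). Without replicate 3 of control cells in trametinib the first of these passed, at log2 0.192 (adjusted p = 0.033). In vemurafenib the mean of the guides joins SGF29 values on opposite sides of control. Guide 1 alone was lower than control there by log2 -0.20 ± 0.081 (adjusted p = 0.042, libraries apart), and guide 2 gave 0.06 ± 0.08 (adjusted p = 0.55, libraries overlapping). The guide 1 call was lost with DESeq2 size factors, the DESeq2 Wald test and limma voom (adjusted p = 0.054, 0.052 and 0.052). It was also lost without any one of the 3 control replicates in vemurafenib, replicate 1 or 3 of guide 1 in vemurafenib or replicate 1 of guide 1 in DMSO, with the adjusted p reaching 0.17 without replicate 1 of guide 1 in vemurafenib (-0.155).

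The drug responses of knockout and control cells were then compared directly. In knockout cells KAT2B, TADA2B and TADA3 responded to each drug less than in control cells. The difference in response (knockout minus control, mean of the guides) passed for 3 of 6 members with trametinib, all lower, where 43.9% of all genes passed (20.8% higher, 23.2% lower). With vemurafenib it passed for 6 of 6 members (1 higher, 5 lower), where 42.5% of all genes did (20.0% higher, 22.4% lower). The members' median difference was log2 -0.255 with trametinib and -0.365 with vemurafenib, beside -0.015 and -0.013 over all genes. These differences use the same libraries as the comparisons above.

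KAT2B rose in knockout cells by log2 1.32 ± 0.023 with trametinib and 1.53 ± 0.023 with vemurafenib, where it had risen by 2.24 and 2.88 in control cells. The responses differed by log2 -0.93 ± 0.04 (adjusted p = 8e-25) and -1.35 ± 0.04 (adjusted p = 3.2e-31). Over all genes, 17.1% differed as much in trametinib and 8.61% in vemurafenib. Guide 1 and guide 2 gave -0.76 ± 0.045 and -1.10 ± 0.046 with trametinib, and -1.06 ± 0.045 and -1.64 ± 0.046 with vemurafenib. The SE and p of the mean of the guides leave out this spread between guides. The loss of response was larger with vemurafenib than with trametinib by log2 -0.42 ± 0.038 (adjusted p = 5.9e-12), and KAT2B was the 1 member of 6 to pass that test, where 5.9% of all genes did. TADA2B missed it at log2 -0.15 ± 0.051 (adjusted p = 0.062) and passed with the DESeq2 Wald test (-0.157, adjusted p = 0.019), limma voom (-0.155, adjusted p = 0.048), genes under 10 CPM left out (-0.16, adjusted p = 0.019) and the replicate block (-0.154, adjusted p = 0.047). It also passed without replicate 3 of control cells in trametinib, replicate 1 of control cells in vemurafenib, replicate 1 of guide 1 in trametinib or replicate 3 of guide 1 in vemurafenib (adjusted p from 0.037 to 0.05).

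TADA2B rose by log2 0.20 ± 0.042 with trametinib in guide 1 cells (adjusted p = 5.2e-05) and gave 0.04 ± 0.043 in guide 2 cells (adjusted p = 0.48), which with genes under 10 CPM left out passed at 0.122 (adjusted p = 0.0061). With vemurafenib guide 1 gave 0.10 ± 0.042 (adjusted p = 0.038) and guide 2 gave -0.01 ± 0.043 (adjusted p = 0.93). In these 4 comparisons 63.8%, 61.7%, 60.9% and 59.9% of all genes passed. The guide 1 value in vemurafenib did not pass with no low-count filter (0.104, adjusted p = 0.077), without replicate 1 of guide 1 in DMSO (0.076, adjusted p = 0.17), without replicate 3 of it (0.104, adjusted p = 0.064) or without replicate 3 of guide 1 in vemurafenib (0.073, adjusted p = 0.20). Against the control response the difference was log2 -0.29 ± 0.052 with trametinib (adjusted p = 6.2e-06) and -0.44 ± 0.052 with vemurafenib (adjusted p = 5.5e-10). TADA3 also responded less in knockout cells, with differences of -0.31 ± 0.043 (adjusted p = 2.3e-08) and -0.35 ± 0.043 (adjusted p = 1.4e-09). Unlike TADA2B, it stayed above control in knockout cells under both drugs for the mean of the guides. Its knockout libraries were already at 169 to 191 CPM in DMSO, a range that overlaps the 167 to 188 CPM of control cells given a drug.

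SGF29 fell in knockout cells with both drugs, by log2 0.34 with trametinib (-0.34 ± 0.056, adjusted p = 5.5e-07) and by 0.42 with vemurafenib (-0.42 ± 0.056, adjusted p = 6e-09), and each drug library of a guide lay below that guide's DMSO libraries. Its response differed from control by log2 -0.38 ± 0.098 with vemurafenib (adjusted p = 0.0012). With trametinib the difference was -0.22 ± 0.098 (adjusted p = 0.062). It passed without replicate 2 of control cells in trametinib (-0.325, adjusted p = 0.0061) or without replicate 3 of guide 1 in DMSO (-0.258, adjusted p = 0.029). It also passed with no low-count filter (-0.233, adjusted p = 0.046). With genes under 10 CPM left out it was -0.228 (adjusted p = 0.037). SGF29 reached 10 CPM in knockout libraries only and was kept through them, so that last value is no support. TADA2A fell less in knockout than in control cells with vemurafenib, by log2 -0.22 ± 0.034 against -0.43, a difference of 0.21 ± 0.06 (adjusted p = 0.0034). With trametinib its difference was 0.07 ± 0.059 (adjusted p = 0.40).

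KAT2A differed in its response by log2 -0.16 ± 0.053 with vemurafenib (adjusted p = 0.0099), which did not pass once replicate 2 of control cells in vemurafenib was left out (-0.122, adjusted p = 0.075). With trametinib the difference was -0.12 ± 0.053 (adjusted p = 0.076). It passed in 7 other settings, which were no low-count filter (adjusted p = 0.036), genes under 10 CPM left out (0.042), only the groups compared (0.041), and leaving out replicate 3 of control cells in DMSO (0.032), replicate 2 of control cells in trametinib (0.023), replicate 3 of guide 1 in trametinib (0.048) or replicate 2 of guide 2 in DMSO (0.046). Within knockout cells KAT2A fell with trametinib by log2 0.11 (-0.11 ± 0.03, adjusted p = 0.0013), but with genes under 10 CPM left out the value was -0.012 (adjusted p = 0.71). For the mean of the guides 6 of the 6 members passed in knockout cells with trametinib (3 higher, 3 lower), where 71.4% of all genes passed (37.2% higher, 34.3% lower). With vemurafenib 4 passed (2 higher, 2 lower), where 69.1% did (36.0% higher, 33.1% lower). Guide 1 alone gave 6 with trametinib and 5 with vemurafenib, where 63.8% and 60.9% of all genes passed. Guide 2 alone gave 3 and 4, where 61.7% and 59.9% did. In guide 2 cells with trametinib TADA2B, TADA3 and KAT2A did not pass, and their libraries overlapped those in DMSO. TADA3 gave log2 0.06 ± 0.035 (adjusted p = 0.17) and KAT2A -0.08 ± 0.043 (adjusted p = 0.094). TADA3 passed in 3 other settings and KAT2A in 1.

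**Figure D3:**
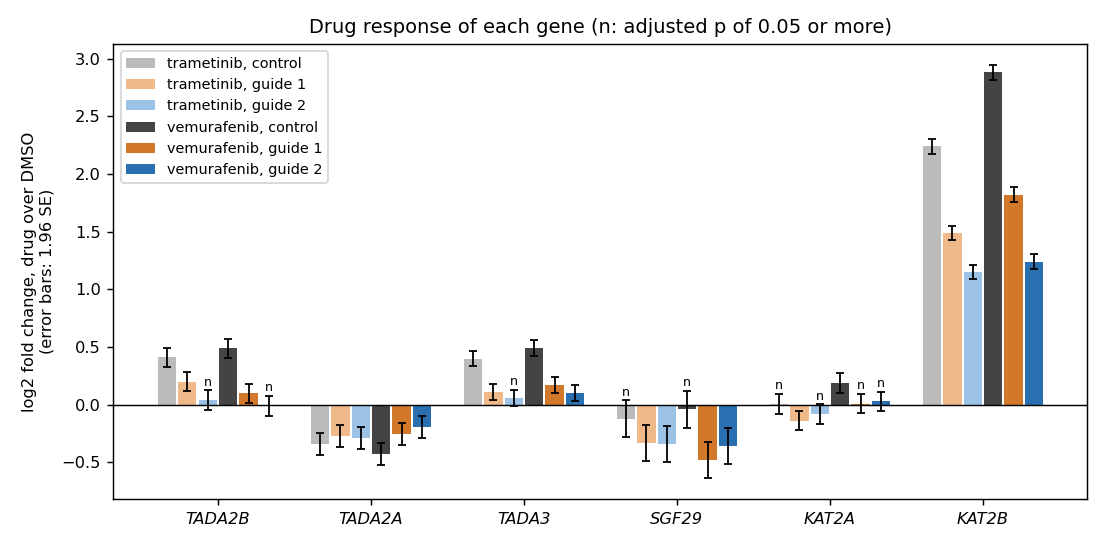
Log2 fold change of each drug over DMSO (vertical axis) for the 6 genes in control, guide 1 and guide 2 cells, with error bars of 1.96 SE and "n" over bars whose adjusted p was 0.05 or more. KAT2B steps down from 2.24 to 1.49 and 1.15 with trametinib and from 2.88 to 1.82 and 1.24 with vemurafenib.

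The guides themselves differed for some members. In DMSO 2 of 6 passed (TADA3 higher and KAT2B lower with guide 2), where 11.9% of all genes passed. With trametinib 2 passed, where 19.7% did, with KAT2B at 68% and TADA2B at 84% of the guide 1 level (log2 -0.56 ± 0.031 and -0.25 ± 0.042, adjusted p = 8.5e-20 and 6.9e-06). With vemurafenib 3 passed, where 16.0% did, with KAT2B at 57.4% (log2 -0.80 ± 0.031, adjusted p = 9.4e-26), TADA2B at 87.4% (-0.19 ± 0.043, adjusted p = 5.7e-04) and SGF29 at 120% (0.26 ± 0.081, adjusted p = 0.022). The SGF29 call was lost without replicate 1 of guide 1 (0.216, adjusted p = 0.12), replicate 3 of guide 1 (0.251, adjusted p = 0.07) or replicate 1 of guide 2 (0.207, adjusted p = 0.14) in vemurafenib. TADA2B and KAT2B were both lower with guide 2 than with guide 1 under both drugs. The guide 2 response of KAT2B was smaller than that of guide 1 by log2 -0.34 ± 0.045 with trametinib and -0.58 ± 0.045 with vemurafenib (adjusted p = 2.1e-07 and 1e-13). It was the 1 member of 6 to pass this test for either drug, where 8.03% and 4.05% of all genes passed.

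Paralog balance was measured in each library as the ratio of counts per kilobase within a pair. The adaptor ratio TADA2B to TADA2A was 1.11, 1.18 and 1.17 in control cells in DMSO, 1.82, 1.94 and 2.06 in trametinib and 2.03, 2.3 and 2.22 in vemurafenib. With guide 1 it averaged 1.28 ± 0.0209 (SD, n = 3) in DMSO, 1.77 ± 0.0275 in trametinib and 1.63 ± 0.0871 in vemurafenib, and with guide 2 it averaged 1.17 ± 0.0631, 1.46 ± 0.0196 and 1.33 ± 0.0426. The ratio was thus higher with each drug in all 3 populations, and knockout libraries stayed below the control libraries of the same drug. Knockout minus control was log2 -0.271 in trametinib and -0.569 in vemurafenib, each with an exact two-sided permutation p = 0.0238 (the smallest that 6 against 3 libraries allow) and an adjusted p = 0.0595 over 10 tests, which does not pass 0.05. In DMSO the libraries overlapped (log2 0.086, exact permutation p = 0.143). These tests pool the 6 libraries of both guides as if they came from a single population. Their p-values therefore do not take the guide as the unit.

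The catalytic ratio KAT2B to KAT2A moved further. It was 0.679, 0.65 and 0.621 in control cells in DMSO, 3.12, 3.15 and 2.92 in trametinib and 4.62, 3.84 and 4.2 in vemurafenib, so that control cells went from more KAT2A to more KAT2B. With guide 1 the ratio averaged 0.764 ± 0.00706 in DMSO, 2.36 ± 0.17 in trametinib and 2.68 ± 0.102 in vemurafenib, and with guide 2 it averaged 0.664 ± 0.0163, 1.56 ± 0.104 and 1.54 ± 0.12. Guide 2 held the lowest ratio of the 3 populations under each drug, and no library of it overlapped another population there. Knockout minus control was log2 -0.678 in trametinib and -1.053 in vemurafenib, with the same exact permutation p = 0.0238 and adjusted p = 0.0595. The guides are pooled here too, although they differed. In vemurafenib the SD of the log2 ratio was 0.448 over knockout libraries and 0.133 over control libraries. For both pairs each drug against DMSO in control cells had libraries apart, with an exact permutation p = 0.1, the smallest that 3 against 3 allow.

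**Figure D4:**
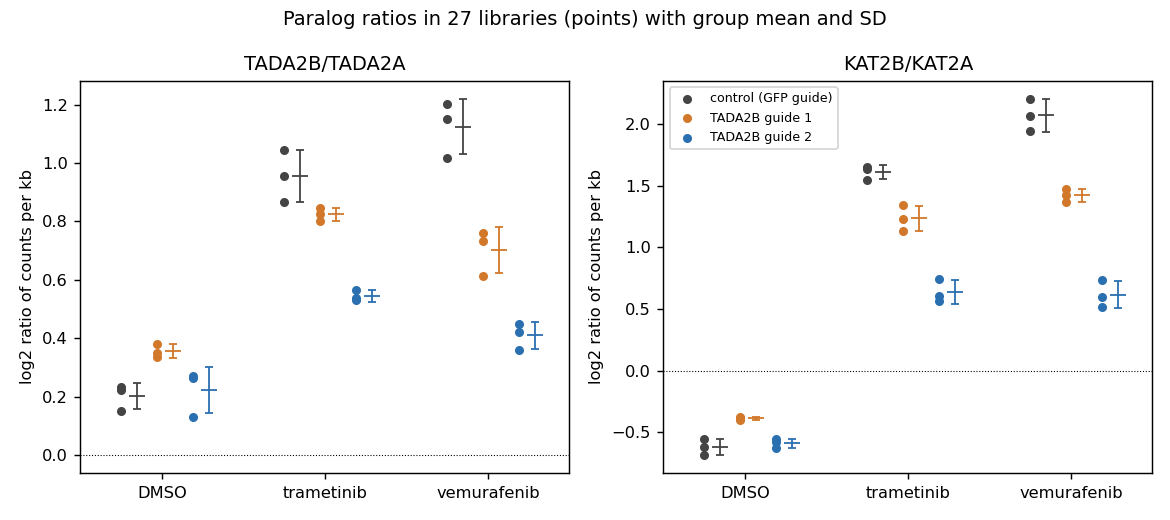
Log2 ratio of counts per kilobase of TADA2B to TADA2A (left) and KAT2B to KAT2A (right) by treatment, with 1 point per library, colour for the population, a line with error bars for the mean and SD of 3 libraries, and a dotted line at equal levels. The KAT2B to KAT2A ratio of control cells crosses equality, from a mean of -0.622 in DMSO to 1.614 in trametinib and 2.073 in vemurafenib.

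Other subunits of the complexes give the setting of the module. Of 22 other SAGA subunits, 8 rose and 9 fell with trametinib in control cells and 10 rose and 9 fell with vemurafenib, with median log2 changes of 0.04 and 0.11 (0.06 over all genes for both). Over all genes 69.0% passed with trametinib (36.4% higher, 32.5% lower) and 67.3% with vemurafenib (35.7% higher, 31.6% lower), so these counts are near the background. In knockout cells in DMSO 10 were higher and 6 lower (median 0.02), where 57.9% of all genes passed (29.3% higher, 28.6% lower). The ATXN7 paralog ATXN7L1 rose with trametinib by log2 0.77 ± 0.062 and was higher in knockout cells in DMSO by 0.57 ± 0.055. SF3B3, a splicing factor subunit that SAGA shares, fell with trametinib by log2 0.92 (-0.92 ± 0.029). USP22, the deubiquitinase of SAGA, stood at 499 ± 12.5 CPM in control cells in trametinib against 393 ± 6.96 with guide 1 and 358 ± 1.68 with guide 2 (log2 -0.41 ± 0.022, adjusted p = 2.2e-21).

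Of 8 other ATAC subunits, 2 rose and 6 fell with each drug in control cells, with median log2 changes of -0.53 with trametinib and -0.47 with vemurafenib, where 32.5% and 31.6% of all genes fell. POLE3, a histone-fold protein also found in a DNA polymerase, went from 114 ± 6.49 CPM in DMSO to 52.1 ± 1.35 with trametinib (log2 -1.13 ± 0.041, adjusted p = 1.3e-28), and WDR5, a scaffold of several chromatin complexes, from 102 ± 0.833 to 48.5 ± 0.885 (log2 -1.07 ± 0.034, adjusted p = 6.5e-31). KAT14, an acetyltransferase subunit of ATAC, went the other way, from 23 ± 1.47 to 40.5 ± 0.631 CPM (log2 0.82 ± 0.05, adjusted p = 9.5e-20). In knockout cells in DMSO 1 was higher and 5 lower (median -0.22), where 28.6% of all genes were lower. The largest difference was that of the reader subunit YEATS2 at 41.3 ± 1.08 CPM with guide 1 and 41 ± 0.598 with guide 2 against 70.1 ± 0.741 (log2 -0.77 ± 0.034, adjusted p = 8.4e-25). TADA2A, the ATAC adaptor among the members, was also lower in each of these comparisons.

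Among 8 acetyltransferases outside both complexes, 5 rose and 1 fell with each drug in control cells (medians 0.18 and 0.21), where 36.4% of all genes rose with trametinib and 35.7% with vemurafenib. HAT1, which acetylates newly made histones, was the one that fell, by log2 1.10 with trametinib (-1.10 ± 0.035). CREBBP, a broad coactivator, rose by log2 0.49 ± 0.032. In knockout against control cells 0 were higher and 5 lower in trametinib, and 0 higher and 6 lower in vemurafenib (medians -0.19 and -0.27), where 28.8% and 28.3% of all genes were lower. CREBBP stood at log2 -0.39 ± 0.027 and its paralog EP300 at -0.32 ± 0.029 in vemurafenib. The response to vemurafenib differed between knockout and control by log2 -0.44 ± 0.039 for CREBBP (adjusted p = 1.5e-13), with 1 of the 8 higher and 6 lower (median -0.17), where 20.0% of all genes were higher and 22.4% lower.

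Genes with the pattern most like a member's were found by Pearson r over the 9 group means of log2 CPM among 8843 protein-coding genes, as a description. The 9 means share the treatments that moved most genes. Nearest to KAT2B were MARVELD1 (r = 0.994), EML3 (0.9881) and HLA-E (0.9873). TADA2B was nearest to IGF2R (0.9839), RTKN (0.9812) and RHBDF1 (0.9799), and TADA3 to CRTC1 (0.992), RUFY1 (0.987) and KEAP1 (0.9822). For SGF29 they were TBX18 (0.9444), ADAT3 (0.9418) and R3HDM4 (0.9228). TADA2A and KAT2A spanned less than 0.5 on the log2 scale over the groups (0.457 and 0.453), so none is named for them. RTKN shows the TADA2B pattern at a larger size, with 51.6 CPM in control cells in DMSO, 86.8 in trametinib and 85.4 in vemurafenib, against 37.6, 42 and 40.9 with guide 2.

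In the order of group means, neighbours seldom separated except for KAT2B, whose 9 groups were each apart from the next. TADA2B ran from 28.5 CPM with guide 2 in vemurafenib to 43.81 in control cells in vemurafenib, and the 6 lowest groups, which include control cells in DMSO, each overlapped the next. The lowest 6 groups of TADA2A, which are all those given a drug, likewise overlapped in turn between 19.31 and 21 CPM, with the DMSO groups above them. TADA3 had control cells in DMSO apart from and below all others. SGF29 was highest in the guide 1 and guide 2 groups in DMSO, at 10.99 and 12.1 CPM, and the other 7 groups overlapped in turn from 7.89 to 9.555 CPM. Guide 2 in DMSO was apart from those 7, whereas the lowest library of guide 1 in DMSO (9.901 CPM) lay below the highest of guide 2 in vemurafenib (10.07 CPM). KAT2A had control cells in DMSO and in trametinib lowest, at 55.59 and 55.84 CPM, and the 6 knockout groups highest, from 68.37 to 76.12 CPM.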

How the data were processed

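Expression was measured in 27 RNA-seq libraries in 9 groups of 3, taken from the sample titles. The authors deposited 1 table of raw whole-number read counts per gene; the submitters' processing notes name bcl2fastq, HISAT2, HTSeq and hg38 without versions, and the labels name a KAPA stranded mRNA kit. Neither the annotation release nor the strand setting is given in the sources used here. All 58721 identifiers matched GENCODE release 29, and 0 rows named no gene.

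From the deposited counts, CPM (TMM-scaled) and all tests were computed with edgeR 4.0.16 in R 4.3.3: quasi-likelihood test, robust dispersion, filterByExpr (25199 genes kept, all 6 members among them), 9 group means, 18 residual degrees of freedom. TMM factors lay between 0.866 and 1.09. A gene was called at an adjusted p under 0.05 (Benjamini-Hochberg over all genes tested). Errors are SD for levels and SE for log2 changes. For the mean of the guides, SE and p rest on the spread of libraries within groups, not on that between guides. A percentage of all genes that passed counts either direction. TMM scaling sets each library against its other genes, so a change in total RNA would not show. Paralog ratios used 0.5 added counts and exact two-sided permutation tests over libraries, with both guides pooled as knockout.

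The alternatives were DESeq2 1.42.0 (size factors; Wald test), limma 3.58.1 voom, no low-count filter, at least 10 CPM in 3 libraries, dispersion not robust, only the groups compared, a replicate block and each library left out in turn. Paralog ratios were also run with 2 added counts, and levels with longest-transcript length. Libraries of a group differed by more than sampling noise (chi-square per degree of freedom 2.94 to 12.0), so none was counted as a copy. The test script was tested on simulated data. The members and lists were chosen with earlier results of these data known, and the contrasts of each guide's response were added after the data were seen. Besides the members, the text names DUSP6 and SPRY4, up to 3 called genes of a list with the largest change, the 3 genes most like a member, cell type markers, and genes that overlap a member.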

Additional observations from a re-analysis of the deposited data

Results flagged for a closer look

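Differences in drug response between knockout and control cells passed the test of the difference itself for several members. With trametinib these were TADA2B (log2 -0.29), TADA3 (-0.31) and KAT2B (-0.93). With vemurafenib they were TADA2B (log2 -0.44), TADA2A (0.21), TADA3 (-0.35), SGF29 (-0.38), KAT2A (-0.16) and KAT2B (-1.35). The KAT2A value rests on replicate 2 of control cells in vemurafenib, without which it was -0.122 (adjusted p = 0.075). Between the guides, the KAT2B response of guide 2 minus that of guide 1 was log2 -0.34 with trametinib and -0.58 with vemurafenib. Groups of 3 were not tested for single outlying libraries.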

How the results depend on the processing

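The number of members past the threshold stayed within 1.5 times its value in 14 of 14 comparisons with DESeq2's size factors, DESeq2's Wald test, limma voom, dispersion not robust and only the groups compared. With other filters it did so in 13 of 14, and the remaining one was the difference in response to trametinib, where 3 of 6 members passed, 5 passed with no low-count filter and 5 with at least 10 CPM in 3 libraries. Leaving out 1 library at a time gave 3 to 5 there, with 5 without replicate 2 of control cells in trametinib. No called value changed sign under any alternative. The filter of at least 10 CPM in 3 libraries also changed the scaling. In trametinib against DMSO in control cells it moved TADA2B from log2 0.407 to 0.511, TADA2A from -0.344 to -0.24 and KAT2A from 0.01 to 0.11. The calls lost and gained with that filter are therefore not independent of each other. Of 186 member results, the numbers that lost or gained a call were 4 and 17 with at least 10 CPM in 3 libraries, 4 and 3 with no low-count filter, 4 and 3 with only the groups compared, 3 and 1 with size factors, 3 and 3 with the Wald test, 2 and 2 with limma voom and 0 and 1 with dispersion not robust. The paralog ratio differences kept their direction with 2 added counts and without any 1 library, and none passed the threshold in any of these settings, which 3 against 3 libraries could not do. Levels per kilobase all moved by more than 1 SD with longest-transcript length (54 of 54).

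The labels do not say what a shared replicate number means, and deviations of same-numbered libraries from their group means did not go together (108 pairs, r from -0.353 to 0.347, 15 above 0.1; 12 of 27 libraries closest to their own number). With a replicate block the count stayed the same in 14 of 14 comparisons, with 5 of 6 members in knockout against control cells in DMSO, for example. The KAT2B difference in response to vemurafenib was -1.35 with the replicate block, and 1 member result gained a call (TADA2B, vemurafenib minus trametinib difference in response, -0.154, adjusted p = 0.047). SGF29, with 530 to 1072 counts per library, had the largest standard errors of the members (0.081 against 0.033 for KAT2B in trametinib).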
